A study of Mus musculus with 4 samples.

Results

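The genes described here encode proteins of plasminogen activation and blood coagulation: the plasminogen activators Plau and Plat, the receptor Plaur, the inhibitors Serpinb2 and Serpine2, the coagulation proteins F3 and F10, and the protein C pathway receptors Procr and Thbd. The 9 genes were listed by name and function, with results of these arrays already known. A value was taken from each probe set (the group of probes read together for a transcript) annotated with 1 of these gene symbols and no other. Of the 9, 8 had such a probe set, 1 each, among 19938 genes with a probe set of a single symbol. Serpine2, which encodes protease nexin-1, had none and is not described further.

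RNA of cultured mouse microglia (in the animal, the macrophages that reside in brain tissue) was hybridised to Affymetrix Mouse Gene 1.0 ST arrays, 1 array for each of 4 groups. The groups were wild type (WT) C57Bl cells left untreated, WT C57Bl cells given lipopolysaccharide (LPS) for 3 h, Bid-/- cells left untreated, and Bid-/- cells given LPS for 3 h. Bid is a pro-apoptotic Bcl-2 family protein, LPS is a bacterial cell wall component sensed by TLR4, and the series title sets out to compare inflammatory profiles with and without Bid. The strain of the Bid-/- cells, the sex and age of the animals, the number of cultures and the LPS dose are not stated in the labels. The design text says that no group was replicated, so a difference of 2 arrays cannot be set against replicate error and carries no p-value.

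Plasmin is a protease made from plasminogen by urokinase (Plau) or tissue plasminogen activator (Plat), and it digests fibrin and parts of the extracellular matrix. Urokinase acts at the cell surface when bound to its receptor uPAR (Plaur), and serpins such as PAI-2 (Serpinb2) inactivate both activators. Coagulation starts when tissue factor (F3) meets factor VII and activates factor X (F10). It is restrained by thrombomodulin (Thbd) and the endothelial protein C receptor (Procr), which together promote activation of protein C. Monocytes and macrophages are known to make tissue factor, uPAR and PAI-2 when given LPS.

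Microglia and macrophage markers were plainly present: of 10 listed, 9 had a probe set, 9 reached the floor on both untreated arrays and 8 on both LPS arrays, with array medians from 9.95 to 10.59. The floor was set at 4.26 on the log2 scale, the middle of all probe sets when each is averaged over the 4 arrays. P2ry12, a homeostatic microglia receptor, was near it, at 4.33, 3.91, 4.38 and 3.90 on the WT untreated, WT LPS, labelled Bid-/- untreated and labelled Bid-/- LPS arrays, the order used for every list of 4 values here. Neutrophil markers were below the floor on all 4 arrays (0 of 10 reached it). Of 10 platelet markers 7 had a probe set and 5 reached the floor on any array, with Gp9 and Gp5 below it on every array. The platelet chemokine genes Pf4 (9.23, 9.63, 8.75 and 8.16) and Ppbp (6.54, 7.00, 5.28 and 4.86) were lower under the Bid-/- label. Itga2b, Treml1 and Tubb1, the other platelet markers at the floor, were not lower under it on both pairs of arrays. Labelled Bid-/- minus WT, the median platelet marker differed by 0 between the untreated arrays (2 above 0 and 2 below). Between the LPS arrays it differed by -0.16 (2 above 0 and 3 below). Of 10 hepatocyte markers 8 had a probe set and 3 reached the floor, with Alb below it on every array and Ttr, the gene of transthyretin, at 9.53, 7.85, 9.96 and 9.23. The part of these transcripts in the members' values was not tested. Endothelial markers, listed because Thbd, Procr and Plat are well known in endothelium, reached the floor for 3 to 5 of 10 genes. Emcn, Tek, Tie1 and Ocln were below it on every array. Flt1 (5.05, 5.18, 5.01 and 5.38), Pecam1 and Cldn5 were above it on every array. Astrocyte markers reached it for 4 to 6 of 10 genes, with Gfap and Aqp4 below it on every array and Gja1, Aldoc, Fgfr3 and Sox9 above it. Oligodendrocyte lineage markers, 9 of 10 with a probe set, reached it for 4 to 7 genes, and neuron markers for 1 of 10. In bulk RNA, fewer cells of a type and less RNA per cell cannot be told apart. The Bid probe set read 5.69, 5.02, 5.53 and 5.97, which is not lower on the LPS array labelled Bid-/- than on the WT one, and the labels do not say which exons were deleted or whether this probe set reads them. Each direction between genotypes below therefore rests on the labels alone, and background, sex and culture cannot be told apart from genotype. No member (0) lies on the chromosome of Bid.

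Upstream sequence is shown for the 4 members above the floor that could be searched, because all of them hold a motif found in a small share of promoters. Plau, Thbd and Plat were not searched, so the motif was not compared between members with and without an LPS increase. The sequences come from RefSeq, build GRCm38.p6, which listed transcription start sites for 6 of the 9 genes. The 250 bases before the first listed start were searched on both strands for 5 motifs: the NF-kB consensus, the AP-1 motif TGANTCA, the cyclic AMP response element TGACGTCA, its shorter part TGACG, and the TATA box TATAAA. The AP-1 motif was in the window of 4 of the 6 genes (Plaur, Serpinb2, F3 and Procr, not Serpine2 or F10), against 6.75% of 32851 windows of all genes. The stretches of 30 bases around the matches, all on the + strand, are written 5′ to 3′ with the motif in capitals.

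Plaur, chr7:24462402-24462431: aacccctggagcTGACTCActctttagcaa
Serpinb2, chr1:107511317-107511346: tgagtaaaatgtTGAATCAtacaaagaata
F3, chr3:121723385-121723414: cgctgtTGAATCAcggtTGAGTCAcccctt
Procr, chr2:155751051-155751080: gccccaccccccTGACTCAgcggcgaccta

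Counted from the start site, the match begins at base -69 in Plaur, -94 in Serpinb2 and -154 in Procr. F3 holds a pair of matches that do not overlap, beginning at -146 and -135. Serpinb2 also holds a TATA box at -29, which is in 12.4% of all windows, and Procr holds the shorter TGACG, which is in 17.8%. The NF-kB consensus, searched as GGGRNNYYCC (R is A or G, Y is C or T), was in none of the 6 genes' first windows (0) and in 7.25% of all windows. Sites that depart from this pattern were not searched, so the absence is of these letters only. A match describes letters in these windows and not binding, and the motif was singled out after the matches were seen.

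**Figure D1:**
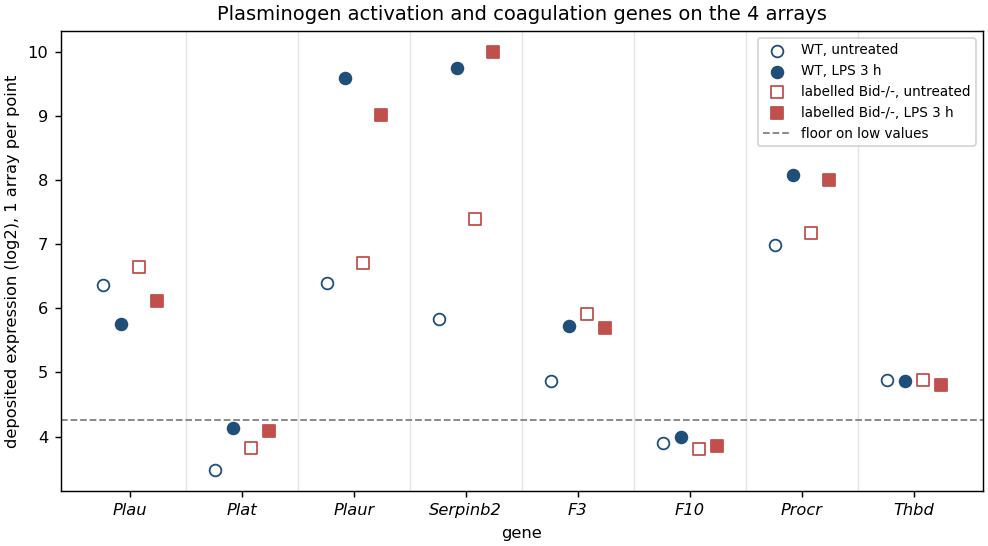
Deposited log2 expression of the 8 measured genes on each of the 4 arrays (vertical axis), 1 point per array, with WT as circles, labelled Bid-/- as squares, untreated open and LPS filled; the dashed line is the floor of 4.26. Plaur and Serpinb2 stand at 9.02 to 10.00 on the LPS arrays, and Plat and F10 lie below the floor on all 4.

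Serpinb2 encodes PAI-2, a serpin that inhibits both plasminogen activators and is largely kept inside the cell. It read 5.84 on the WT untreated array and 9.75 with LPS, and 7.39 and 10.00 on the arrays labelled Bid-/-. Both LPS arrays were above both untreated arrays, and the untreated array labelled Bid-/- stood between. The LPS difference was 3.91 on the log2 scale in WT (15.0-fold) and 2.61 in cells labelled Bid-/- (6.11-fold), rank 4 from the top among 11129 genes in WT and rank 31 among 10995 in cells labelled Bid-/-. Genes entered a comparison when the higher of its 2 arrays reached the floor.

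Plaur, the receptor that holds urokinase at the cell surface, also rose. It read 6.40 and 9.60 on the WT arrays and 6.71 and 9.02 on the arrays labelled Bid-/-, with both LPS arrays above both untreated ones. The LPS difference was 3.20 in WT (9.19-fold, rank 14) and 2.31 in cells labelled Bid-/- (4.96-fold, rank 42).

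The LPS effect averaged over both genotype labels was fitted with limma as an additive model on 11326 genes. A gene's own residual is the difference of response between the labels. The SE and p also draw on the spread of all fitted genes, through eBayes, with 3.07 prior degrees of freedom against 1 residual. In that fit Serpinb2 rose by 3.26 (SE 0.353, limma adjusted p = 0.0384) and Plaur rose by 2.76 (SE 0.263, limma adjusted p = 0.0327), and both were higher with LPS in both labels. The fit called 1.68% of genes higher (190) and 1.56% lower (177). Over 6 alternatives the limma adjusted p ran from 4.7e-06 to 0.126 for Serpinb2 and from 4.7e-06 to 0.107 for Plaur. The call was lost without a floor, where the fit called 0 genes in either direction, with 3751 of 19938 at an unadjusted p under 0.05.

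Plau, the urokinase activator itself, did not rise with its receptor. It read 6.36 untreated and 5.75 with LPS in WT, and 6.64 and 6.12 in cells labelled Bid-/-. Both LPS arrays were below both untreated arrays, by 0.61 in WT and 0.52 in cells labelled Bid-/-. The mean LPS effect was -0.56 (SE 0.121, limma adjusted p = 0.0804, from 0.0386 to 0.165 over the alternatives). It passed in 1 of 6 alternatives, with noise added inside the rounding of the values. Plat, the tissue-type activator, read 3.48, 4.14, 3.82 and 4.08, below the floor on all 4 arrays, and was not tested.

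**Figure D2:**
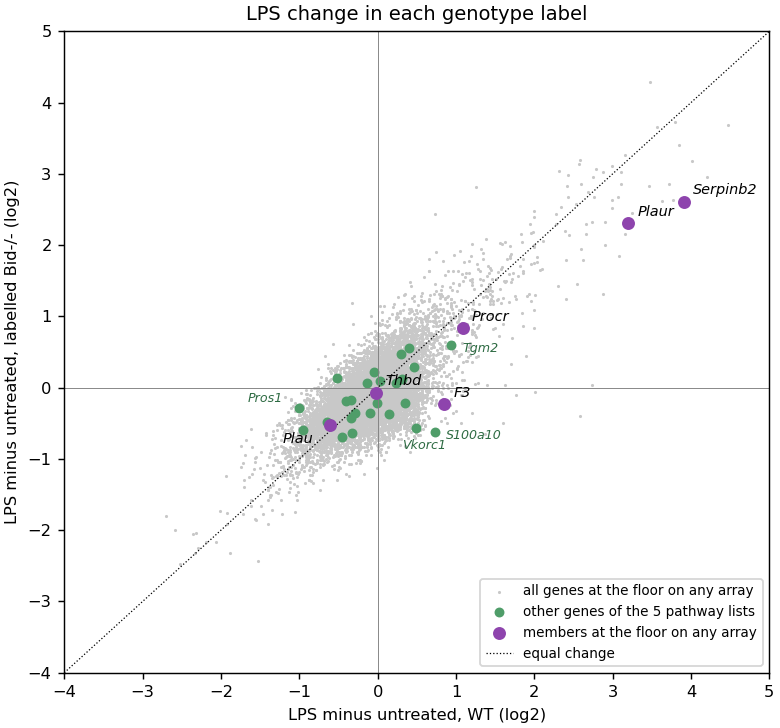
LPS minus untreated in WT (horizontal axis) against the same in cells labelled Bid-/- (vertical axis), both log2, for 11326 genes (grey), the other genes of 5 pathway lists (green) and the members that reached the floor (purple, named). Serpinb2 and Plaur lie far from 0 on both axes and below the line of equal change, and F3 lies above 0 in WT (0.85) and below it in cells labelled Bid-/- (-0.23).

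Procr, the endothelial protein C receptor, was higher with LPS in both labels. It read 6.99 and 8.08 in WT and 7.18 and 8.01 in cells labelled Bid-/-, so that both LPS arrays were above both untreated ones. The LPS difference was 1.09 in WT (2.13-fold) and 0.83 in cells labelled Bid-/- (1.78-fold). The mean effect of 0.96 (SE 0.155) did not pass (limma adjusted p = 0.0588, from 0.00388 to 0.139 over the alternatives). It passed in 3 of 6, which were quantile normalization, a floor of 5 and noise inside the rounding. Thbd, the thrombin-binding partner of that receptor in protein C activation, read 4.88, 4.86, 4.88 and 4.81. These values are low, under the floor of 5, which left Thbd out of that alternative. Its LPS differences were -0.02 and -0.07, and its mean effect of -0.04 did not pass (SE 0.0997, limma adjusted p = 0.805, from 0.803 to 0.946 over the alternatives).

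F3 encodes tissue factor, the cell surface protein that starts coagulation. It read 4.87 on the WT untreated array, 5.72 with LPS in WT, 5.92 on the untreated array labelled Bid-/- and 5.69 with LPS in cells labelled Bid-/-. The WT untreated array was the low one, under the alternative floor of 5, and the other 3 lay within 0.23 of each other. The LPS difference was 0.85 in WT and -0.23 in cells labelled Bid-/-. The second value shrank to -0.113 after quantile normalization, -0.049 with the trend on expression level subtracted and -4.9e-05 with that on gene span subtracted too. The mean effect of 0.31 did not pass (SE 0.288, limma adjusted p = 0.542, from 0.213 to 0.648 over the alternatives). F10, the protease zymogen activated downstream of tissue factor, read 3.90, 4.00, 3.81 and 3.85, below the floor on all 4 arrays.

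Counted by size, 3 of the 6 members that reached the floor were at least 2-fold higher with LPS in WT (Serpinb2, Plaur and Procr) and 2 in cells labelled Bid-/- (Serpinb2 and Plaur), and none (0) was 2-fold lower. All 6 reached the floor on every array. Of all genes compared, 2.39% passed 2-fold upward and 2.08% downward in WT, and 2.70% and 1.65% in cells labelled Bid-/-. The members were listed with results of these arrays known, so their share is a description.

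Between the untreated arrays, Serpinb2 and F3 were at least 2-fold higher in cells labelled Bid-/- than in WT. The difference was 1.55 for Serpinb2 (2.93-fold, rank 6 of 10909 genes) and 1.05 for F3 (2.07-fold, rank 32). Plaur, Plau and Procr were higher by 0.31, 0.28 and 0.19, and Thbd by 0.00. Of all genes compared, 0.358% passed 2-fold upward and 0.0733% downward, and the SD of the difference was 0.213. F3 was just under 2-fold after quantile normalization (0.985).

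Between the LPS arrays, no member (0 of 6) differed 2-fold in either direction, against 0.326% of 11044 genes higher and 0.489% lower in cells labelled Bid-/-. Serpinb2 was 0.25 higher in cells labelled Bid-/-, Plau 0.37 higher and Plaur 0.58 lower. F3, Procr and Thbd differed by -0.03, -0.07 and -0.05. The SD over all genes was 0.363, so Plau and Serpinb2 lay within about that distance of 0 and Plaur beyond it.

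**Figure D3:**
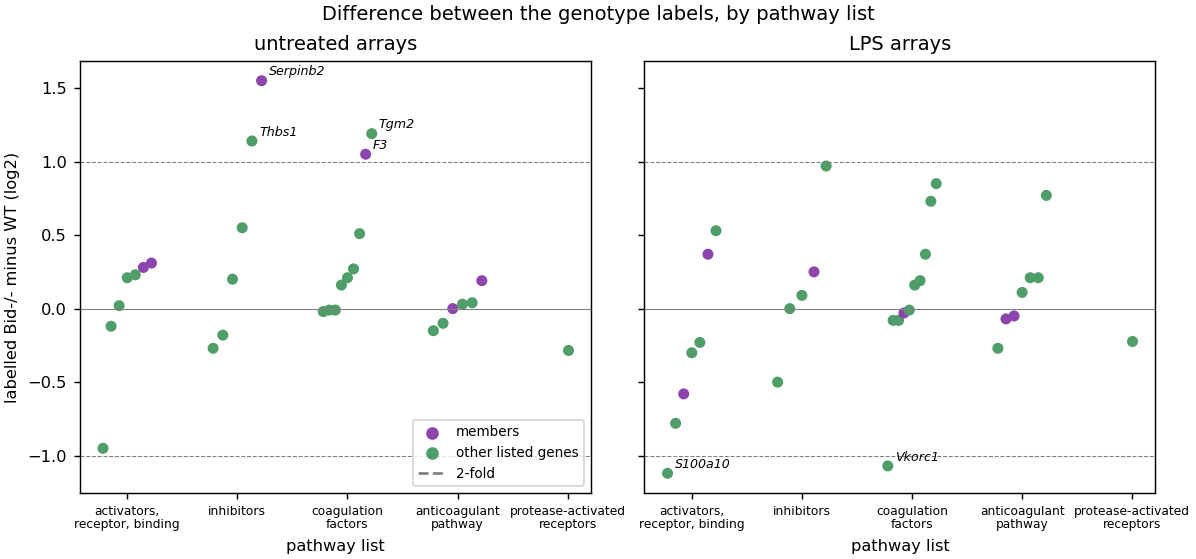
Labelled Bid-/- minus WT on the log2 scale (vertical axis) for each gene of the 5 pathway lists that reached the floor in the comparison, on the untreated arrays (left) and the LPS arrays (right); members are purple, other listed genes green, and dashed lines mark 2-fold. Serpinb2, Tgm2, Thbs1 and F3 lie above 2-fold on the left, and S100a10 and Vkorc1 lie below it on the right.

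The LPS difference in cells labelled Bid-/- minus that in WT was -1.30 for Serpinb2, -1.08 for F3 and -0.89 for Plaur, ranks 20, 53 and 120 from the lowest among 11326 genes. For Serpinb2 it combines a higher untreated value (1.55) with a slightly higher LPS value (0.25) in cells labelled Bid-/-. For Plaur it combines 0.31 untreated with -0.58 with LPS. For Procr it was -0.26, for Thbd -0.05 and for Plau 0.09. Of all genes, 0.159% passed 2-fold upward and 0.627% downward by this measure. It was not tested, and it uses the same 4 arrays as the comparisons above. F3 was just under 2-fold (-0.985) after lowess trends on expression level and on gene span were subtracted.

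Summed, fibroblast and mural markers were low on the same array as F3, though not every marker followed it. Of 10 listed markers 8 reached the floor on any array, and Lum and Rgs5 were below it on all 4. The log2 of their summed level was 8.51 on the WT untreated array and 9.43, 9.55 and 9.30 on the others. By the sum the WT untreated array was therefore the low one, as for F3. The sum is of unlogged levels, so the highest markers weigh most in it. Dcn (5.94, 7.31, 8.09 and 7.44) was the 1 marker 2-fold higher under the Bid-/- label between the untreated arrays (2.15). Like Dcn, Col3a1 (5.15, 5.77, 6.02 and 5.98), Col1a1, Col1a2 and Pdgfra were lowest on the WT untreated array. Acta2 read 6.26, 7.15, 6.75 and 6.25, about as low on the labelled Bid-/- LPS array as on the WT untreated one. Tagln (5.10, 6.70, 5.76 and 5.27) was nearly as low on the labelled Bid-/- LPS array as on the WT untreated one. Pdgfrb (4.28, 5.04, 4.45 and 5.56) was nearly as low on the untreated array labelled Bid-/-. The median marker differed by 0.77 between the untreated arrays (8 of 8 above 0), by 0.215 between the LPS arrays (6 of 8), by 0.76 with LPS in WT (8 of 8) and by -0.08 with LPS in cells labelled Bid-/- (3 of 8). Serpinb2, Tgm2 (a transglutaminase) and Thbs1 (thrombospondin-1), also higher on the untreated array labelled Bid-/-, were higher again with LPS under that label, by 2.61, 0.60 and 0.29. The astrocyte marker Gja1 (4.84, 5.99, 5.29 and 5.80) was also lowest on the WT untreated array. The median astrocyte marker differed by -0.07 between the untreated arrays, with 1 of 5 above 0. The part of the cells that these markers stand for in the values of F3 and Serpinb2 was not tested.

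The genes whose 4 values, centred on each gene's mean, lay nearest to a member were found by root mean square distance over 4 arrays, among 11326 genes. Nearest to F3 were Mmp2, a gelatinase (5.14, 5.85, 6.02 and 5.90, distance 0.0668), and Fstl1, a secreted glycoprotein (4.76, 5.68, 5.98 and 5.73, distance 0.0676). Both show the low WT untreated array and the 3 similar others. Nearest to Serpinb2 were the cytokine Il1a (7.52, 11.29, 8.83 and 11.46, distance 0.0943) and the chemokine-binding receptor Ccrl2 (distance 0.350). Nearest to Plaur were Maff, a small Maf transcription factor (3.79, 7.03, 4.03 and 6.48, below the floor on both untreated arrays, distance 0.0524), and the collagenase Mmp13 (distance 0.171). Few genes came this close: 1 lay within 0.1 of Serpinb2, 1 of Plaur and 3 of F3.

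The other members had more genes near them. The distance is not scaled by the size of change, so these counts do not show how common the shape of a pattern is. Within 0.1 lay 28 genes for Procr (nearest Pcgf3 and Phldb1, at 0.0206 and 0.0255) and 271 for Plau (nearest Irgm1, an interferon-inducible GTPase, and the splicing factor Prpf4, at 0.0212 and 0.0228). For Thbd, flat over the arrays, there were 2228, the nearest being Actb, cytoplasmic actin, and Ikzf2, at 0.00433 and 0.010.

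**Figure D4:**
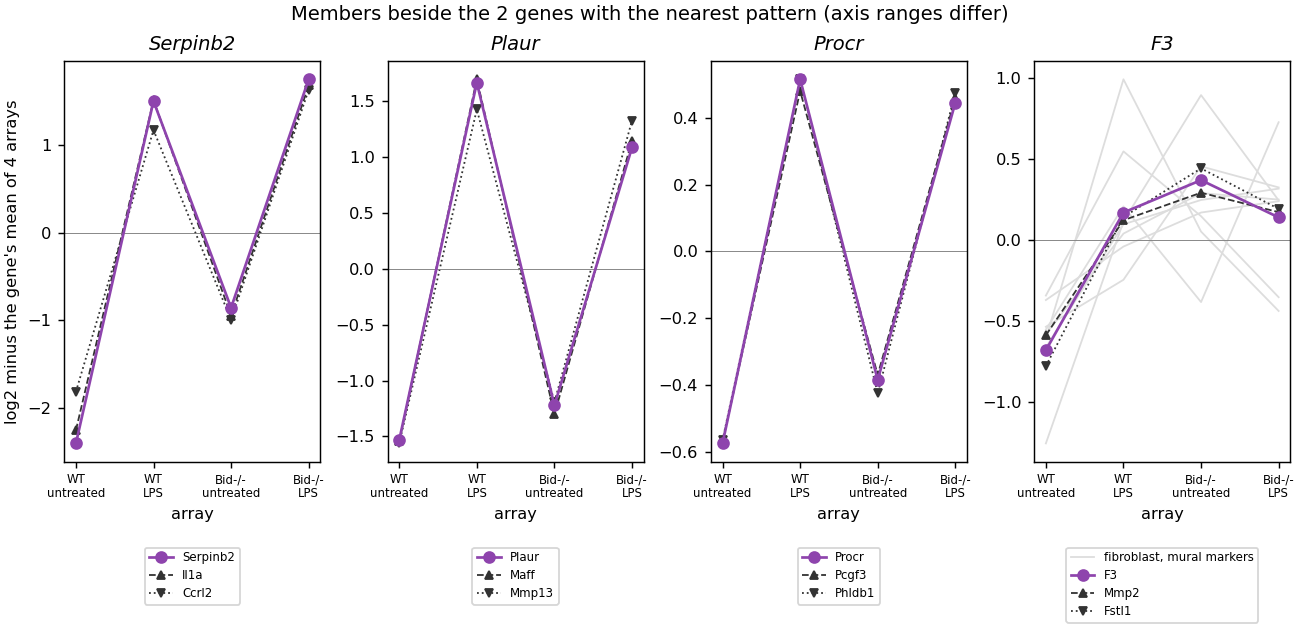
Log2 expression minus each gene's own mean of the 4 arrays (vertical axis) for Serpinb2, Plaur, Procr and F3 (purple) and the 2 genes nearest to each (black), with 8 fibroblast and mural markers in grey beside F3; each panel has its own range. Serpinb2 and Il1a are high on both LPS arrays, whereas F3, Mmp2 and Fstl1 are low on the WT untreated array alone.

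The remaining genes of the pathway were taken from 5 lists of 62 genes, 53 of them not members. Of those 53, 48 had a probe set and 25 reached the floor on any array. In the additive limma fit 0 of the 25 passed for LPS in either direction. An unadjusted p under 0.05, in either direction, was found for 9 of the 25 and for 3258 of all 11326 genes. Of the 9, 3 were higher with LPS, and the direction was not counted over all genes. The median LPS difference of the non-member genes at the floor was -0.10 in WT and -0.22 in cells labelled Bid-/-, where all genes had -0.05 and -0.10. The protease-activated receptor gene F2rl1 had no probe set of a single symbol.

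Among activators, receptor and binding proteins, Plaur was the 1 of 7 genes at the floor that was 2-fold higher with LPS in either label. Plg, plasminogen itself, read 3.56, 3.68, 3.66 and 3.82, below the floor. S100a10, the annexin A2 partner that binds plasminogen at the cell surface, read 7.05, 7.78, 7.28 and 6.66. It was higher with LPS in WT (0.73) and lower in cells labelled Bid-/- (-0.62), which left the LPS arrays 1.12 apart. Anxa2 itself read 7.98, 8.12, 8.19 and 7.82, without a 2-fold difference. The matrix protease Mmp9 was lower in cells labelled Bid-/- without and with LPS, by 0.95 and 0.78.

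Among inhibitors, Serpinb2 was the 1 of 5 genes at the floor in WT, and of 6 in cells labelled Bid-/-, that was 2-fold higher with LPS. Thbs1, thrombospondin-1, a matricellular protein that can bind plasmin, read 10.00, 10.46, 11.14 and 11.43. It was 1.14 higher in cells labelled Bid-/- without LPS and 0.97 higher with it, the latter passing 2-fold after quantile normalization (1.12). Serpinf2, the main plasma inhibitor of plasmin, read 4.66, 4.61, 4.48 and 4.70.

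Of 21 coagulation factors and cofactors, all with a probe set, 10 reached the floor on any array. None (0) was 2-fold changed with LPS, of 10 compared in WT and 9 in cells labelled Bid-/-. Over all genes 2.39% were 2-fold higher and 2.08% lower in WT, and 2.70% and 1.65% in cells labelled Bid-/-. A count of 0 among so few genes therefore does not set this list apart. F7, the protease partner of tissue factor, read 3.82, 4.08, 3.94 and 3.81. It was below the floor on all arrays, as were the fibrinogen chain genes Fga, Fgb and Fgg. Tgm2, a tissue transglutaminase, read 6.73, 7.67, 7.92 and 8.52 and was 1.19 higher in cells labelled Bid-/- without LPS and 0.85 with it. Its LPS difference in WT, 0.94, passed 2-fold once the intensity trend was removed (1.02). Vkorc1, the vitamin K recycling enzyme needed for mature clotting factors, read 7.05, 7.54, 7.03 and 6.47. It was 1.07 lower in cells labelled Bid-/- with LPS, or 0.932 lower after lowess trends on expression level and on gene span were subtracted.

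Of 12 genes of the anticoagulant pathway 7 reached the floor on any array. Pros1, protein S, the cofactor of activated protein C, read 6.89, 5.88, 6.93 and 6.65. Its LPS difference was -1.01 in WT and -0.28 in cells labelled Bid-/-, and the WT value was -0.928 after quantile normalization, under 2-fold. Gas6, a ligand related to protein S, read 7.47, 6.52, 7.32 and 6.73, lower on both LPS arrays. Tfpi, the inhibitor of tissue factor and factor VII, read 7.19, 6.86, 7.22 and 6.59. Its LPS differences were -0.33 and -0.63. The thrombin receptor F2r read 3.54, 3.91, 3.93 and 3.77, below the floor.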

How the data were processed

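The authors deposited 1 table of log2 expression values for 28944 probe sets on 4 arrays. Per the submitters' processing notes, the tools were RMA, Partek 6.2 and Affymetrix Expression Console, whose roles are not stated. The log2 scale was read from the values (1.4 to 13.5, 2 decimals), since the file states no base. RMA as usually run brings probe intensities to a common distribution, which could remove a shift shared by all genes; quantile normalization of the deposited values still moved them. Array annotation gave 1 symbol to 21789 probe sets. Of several probe sets for a gene, the one with the highest mean was used. The members and gene lists were chosen with earlier results of these data known.

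Python 3.11.15 and limma 3.58.1 in R 4.3.3 were used. The additive model (genotype and LPS, eBayes with intensity trend, Benjamini-Hochberg, threshold 0.05) has 1 residual degree of freedom; 169 of 11326 genes have a residual of 0 because values are rounded. It is no replicate check, and its spread may be technical. On simulated data it recovered nearly all large changes and missed most of the smallest simulated ones. The share of its calls that were false exceeded the threshold, so its calls are to be read with caution. The simulated noise was independent, without a genotype effect or a difference of response between labels. The simulation therefore cannot give the power or the rate of false calls in these data. Genes named were the members and pathway genes 2-fold changed in any comparison of 2 arrays. Also named were 7 pathway genes whatever their value, and the 2 nearest patterns of each member at the floor. Anxa2, Mmp9, Gas6 and the fibrinogen genes were added after their values were seen. So were the cell type markers given by name, such as P2ry12, Pf4, Ppbp, Ttr, Gja1 and Acta2. Alternatives were quantile normalization, removal of trends with intensity and gene span (lowess, fraction 0.3), the mean of probe sets, other floors, 1.5-fold, and noise within 0.005. The number of arrays limits the precision.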

Additional observations from a re-analysis of the deposited data

Results flagged for a closer look

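With 1 array per group, 4 results are listed because a member moved in opposite directions in the groups compared. None of these differences was tested. F3 was 0.85 higher with LPS in WT and 0.23 lower in cells labelled Bid-/- (-0.23), the latter shrinking to -0.113 after quantile normalization and to -4.9e-05 with trends on expression level and gene span removed. F3 was also 1.05 higher in cells labelled Bid-/- without LPS and 0.03 lower with it (-0.03). Plaur was 0.31 higher in cells labelled Bid-/- without LPS and 0.58 lower with it (-0.58). Procr was 0.19 higher without and 0.07 lower with LPS (-0.07), both smaller than the SD of 0.213 over all genes between the untreated arrays. With both trends removed, the differences with LPS turned to 0.0443 for F3 and 0.0419 for Procr, so that these 2 opposite directions were lost.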

How the results depend on the processing

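Member values moved by less than 0.213, the SD between the untreated arrays, in nearly all settings; the exceptions were the LPS differences in cells labelled Bid-/- of Plau (-0.269) and F3 (-4.9e-05) after both trends, on expression level and on gene span, were subtracted. No paired analysis was possible because each group has 1 array and so no replicate number to block on, beyond the additive fit, which sets LPS against untreated within each genotype label. Leaving out an array leaves the additive fit no residual degree of freedom. The cause of these shifts was not tested.

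Of the 6 members at the floor, those changed with LPS in WT in either direction numbered 3 at 2-fold and 5 at 1.5-fold. The threshold of 1.5-fold added F3 (0.85) and Plau (-0.61). Members 2-fold changed numbered 1 between the untreated arrays after quantile normalization (2 as deposited). For the difference of response they numbered 1 with both trends removed (2 as deposited). At 1.5-fold the counts over all genes were 646 higher and 1231 lower of 11129 with LPS in WT (266 and 231 at 2-fold). In cells labelled Bid-/- they were 757 and 1141 of 10995 (297 and 181). At 1.5-fold they were 158 and 48 of 10909 between untreated arrays (39 and 8) and 518 and 670 of 11044 between LPS arrays (36 and 54). For the difference of response they were 369 and 686 of 11326 (18 and 71). With both trends removed, 135 genes were 2-fold lower with LPS in WT and 109 in cells labelled Bid-/-, or 103 in cells labelled Bid-/- with the intensity trend alone removed.

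Pathway list genes at 1.5-fold were 6 higher and 4 lower of 29 with LPS in WT (3 and 1 at 2-fold). In cells labelled Bid-/- they were 4 and 4 of 29 (2 and 0). Between untreated arrays 1 of 29 was lower (0), and between LPS arrays 4 of 30 were higher (0). For the difference of response 2 of 31 were higher (0). The pathway gene 2-fold lower in WT became 0 after quantile normalization, with the intensity trend removed and with both trends removed. Quantile normalization gave 1 lower between untreated arrays. It gave 1 higher between LPS arrays, as did removal of the intensity trend or of both trends. With both trends removed, 1 was lower between LPS arrays (2 as deposited) and 2 for the difference of response (4).

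In the additive limma fit 190 genes passed as higher and 177 as lower. It called 810 and 1118 after quantile normalization, 0 and 0 without a floor (3751 at an unadjusted p under 0.05), 359 and 528 with a floor of 5, and 590 and 1137 with noise inside the rounding. Without an intensity trend in eBayes it called 92 lower.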
